A study of Mus musculus with 2 samples.

Results

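Ribonuclease P and ribonuclease MRP are related RNA-protein enzymes. Ribonuclease P removes the 5′ leader from precursor tRNAs, and ribonuclease MRP cuts precursor ribosomal RNA in its first internal spacer. Each has its own catalytic RNA, Rpph1 or Rmrp, and the enzymes share most of their protein subunits. Nuclear respiratory factor 1 (NRF1) is a transcription factor that binds a GC-rich palindromic element in promoters and regulates many genes of mitochondrial function and of basic cell growth. The genes described here are the 10 subunit genes Pop1, Pop4, Pop5, Pop7, Rpp14, Rpp21, Rpp25, Rpp30, Rpp38 and Rpp40, among 21318 protein-coding genes with a usable transcription start site (TSS).

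The sites that NRF1 binds were profiled by ChIP-seq in CH12.LX, an immortalized mouse B-cell lymphoma line labelled female and of strain B10.H-2aH-4bp/Wts. The 2 libraries, made with an antibody to NRF1, are biological replicates per the labels and form 1 group with no treatment, so no groups could be compared. A gene was called occupied where the summit of a peak in the authors' optimal set, chosen by how peak ranks recur between replicates, lay within 1000 bp of a TSS on mm10. The genes were listed with these peaks known, so signals, ranks and counts are descriptions without a test. Peak signal is in the authors' own units, of unknown scaling, and rank 1 is the strongest peak of a list. Read depth is unknown.

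Of the 10 subunit genes, 8 were occupied, against 39.2% of all protein-coding genes. Signals in the optimal set ran from 698 at Pop7 to 23.3 at Pop4, with a median of 383, against a median of 85.6 over 8357 occupied protein-coding genes. Pop5 had no optimal summit within the window and a strong one inside the gene, 2102 bp from its TSS. Rpp25 had no peak near its start in any list. The occupied gene with its summit farthest from the start was Rpp14, at 197 bp, so no gene sat close to the limit of 1000 bp on either side.

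The sequences below are those under the strongest and the weakest promoter peaks, under the near-TSS peaks of Rpp38 and Rpp30, under the peaks of Rpp14 and Pop5 that sit away from the outermost start, and at the unoccupied Rpp25. Capitals mark matches with up to 1 mismatch to the 10-base NRF1 consensus, and for Rpp30 a match with 2 mismatches. All are written 5′ to 3′ on the strand given. The first 4 are promoter stretches from RefSeq on GRCm38.p6 (mm10), and the other 3 are 30-base sites from the NCBIM37 (mm9) genome.
Pop7, chr5:137502400-137502549, minus strand, from 120 bp before the TSS: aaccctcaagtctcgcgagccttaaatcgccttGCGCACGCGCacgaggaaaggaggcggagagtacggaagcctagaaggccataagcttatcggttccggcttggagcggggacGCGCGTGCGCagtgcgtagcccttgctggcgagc
Rpp38, chr2:3332599-3332748, minus strand, from 120 bp before the TSS: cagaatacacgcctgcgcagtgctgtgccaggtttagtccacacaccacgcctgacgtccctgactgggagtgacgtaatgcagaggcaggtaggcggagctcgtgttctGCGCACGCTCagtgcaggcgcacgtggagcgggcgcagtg
Pop4, chr7:38271319-38271468, minus strand, from 120 bp before the TSS: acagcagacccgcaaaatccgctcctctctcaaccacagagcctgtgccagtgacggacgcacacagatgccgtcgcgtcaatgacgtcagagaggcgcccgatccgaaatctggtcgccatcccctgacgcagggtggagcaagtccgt
Rpp25, chr9:57503982-57504131, plus strand, from 120 bp before the TSS: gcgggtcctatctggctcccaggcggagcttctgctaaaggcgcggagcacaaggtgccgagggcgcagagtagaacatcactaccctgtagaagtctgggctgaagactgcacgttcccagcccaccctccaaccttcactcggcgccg
Rpp14, chr14:8913019-8913048 (mm9), plus strand: cggggcaggtGCGCATGCGCgacgcgggag
Pop5, chr5:115687941-115687970 (mm9), plus strand: ccggaggcgaACGCATGCGCtcttacgccc
Rpp30, chr19:36158174-36158203 (mm9), plus strand: ggacaacacgGCGGCTGCGCagactggcgc

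Pop7 (also called Rpp20) and Rpp25 encode the pair of Alba-type proteins that bind the catalytic RNA together as a heterodimer, and their genes stood at opposite ends of the order. The Pop7 peak (chr5:137502224-137502691) had a signal of 336 in replicate 1 and 366 in replicate 2, or 351 ± 21.4 (SD, n = 2). It ranked 2 in the optimal set, 19 in replicate 1 and 2 in replicate 2, and its summit lay 27 bp upstream of the TSS. Of all occupied protein-coding genes, 99.98% had a lower signal. The genes closest to Pop7 in log2 signal over the 2 replicates were Rps6ka5, Dhx37 and Izumo4, at distances of 0.0415, 0.047 and 0.055. At Rpp25, neither relaxed replicate list, which holds weak peaks and background, had a peak within 1000 bp of the start. The same was true of 30.7% of all protein-coding genes. The nearest optimal summit to Rpp25 lay 17111 bp away with a signal of 58.4. Rpp25l, a paralog of Rpp25, was occupied, with a signal of 19.5 in replicate 1 and 27.0 in replicate 2 and a summit 12 bp inside the gene.

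Pop1, the largest protein and a scaffold of both enzymes, and Pop5, Rpp14 and Rpp30, further subunits, all had strong peaks. The Pop1 peak (chr15:34495155-34495464) had a signal of 277 in replicate 1 and 248 in replicate 2, with the summit 5 bp upstream of the TSS. Rpp30 (chr19:36083550-36083850) had 239 in replicate 1 and 231 in replicate 2, with the summit 17 bp upstream. Both replicates of Pop1 were thus above both of Rpp30, and both genes had their summit almost on the start.

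Rpp14 and Pop5 had their summits farther inside the gene. The Rpp14 peak (chr14:8080351-8080670) had 283 in replicate 1 and 250 in replicate 2, higher than Pop1 in each replicate but with a range that overlapped that of Pop1. The Pop5 peak (chr5:115237791-115238111) had 275 in replicate 1 and 285 in replicate 2, or 280 ± 6.60 (SD, n = 2), a level like that of Rpp14 and Pop1. Within 1000 bp of the Pop5 start on mm10, the strongest relaxed peaks had 6.43 in replicate 1 and 6.36 in replicate 2, at ranks 33755 and 39272, below every occupied subunit gene in rank. In the GENCODE annotation of mm9, Pop5 has 6 annotated starts, and the summit of the mm9 peak lay 20 bp upstream of 1 of them and 2123 bp inside the gene from the outermost one. Whether Pop5 counts as occupied therefore depends on which start is used.

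Rpp38 (an RNA-binding protein of the L7Ae family), Rpp21 (a subunit of ribonuclease P and not of MRP), Rpp40 and Pop4 (also called Rpp29) formed the lower end of the order. Rpp38 (chr2:3332471-3332856) had 139 in replicate 1 and 159 in replicate 2 at a summit 16 bp inside the gene. It was the subunit gene with more than 1 optimal summit. A summit at −184 bp from the TSS had 74.7 in replicate 1 and 74.4 in replicate 2. A summit at −410 bp had 39.7 in replicate 1 and 29.2 in replicate 2. The RefSeq gene of Rpp38 reaches 358 bp farther upstream than the start used here, so the summit at −184 bp lies inside its span.

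Rpp21 (chr17:36257794-36257963) had 84.0 in replicate 1 and 70.9 in replicate 2, with the narrowest peak of the subunit genes at 170 bp. Rpp40 (chr13:35906112-35906455) had 28.4 in replicate 1 and 30.4 in replicate 2, and its optimal signal of 60.6 was below the median of occupied genes. The RefSeq gene of Rpp40 reaches 5218 bp farther upstream than the start used here, and the peak sits at the inner start.

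Pop4 (chr7:38271222-38271565) had the weakest peak, with 9.39 in replicate 1 and 13.5 in replicate 2, at ranks 18573 and 11659. Of all occupied genes, 10.1% had a lower optimal signal, and the authors' rank score was 982, against 1000 for the other 7 occupied subunit genes. In the conservative set the Pop4 score was 771, against 1000 for the same 7 genes. The genes closest to Pop4 in log2 signal were Alcam, Strip2 and Cpne2, at distances of 0.0365, 0.0489 and 0.0543.

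**Figure D1:**
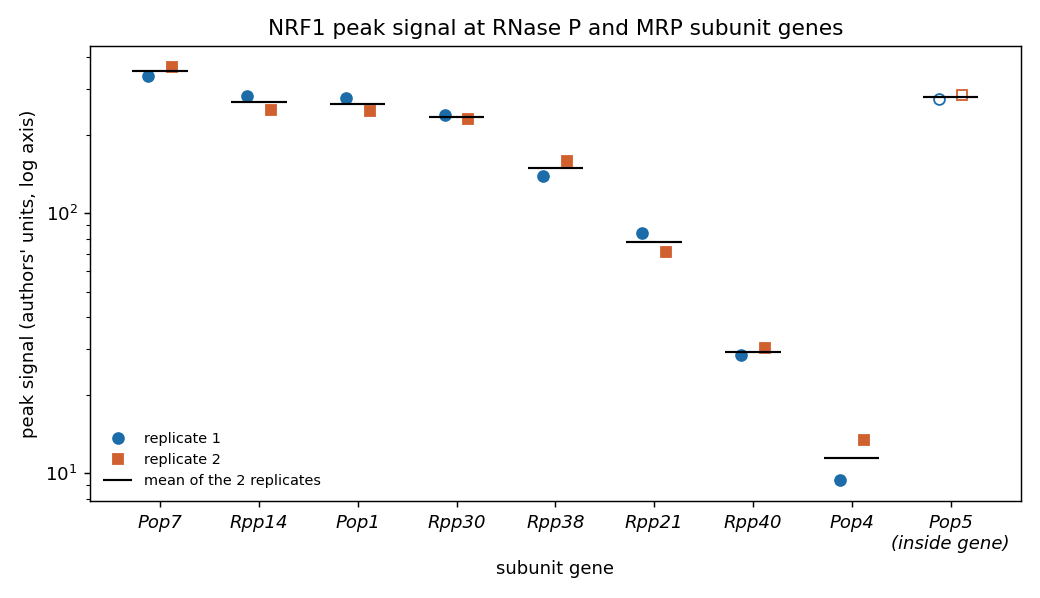
Peak signal in the authors' units (log axis) of each subunit gene in replicate 1 (circles) and replicate 2 (squares), with the mean of the 2 replicates as a bar; open symbols show the peak inside Pop5, 2102 bp from its TSS. The replicate mean was 351 at Pop7 and 11.4 at Pop4, and the peak inside Pop5 stood at 280.

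The replicates placed the 8 occupied genes in the same order. Ratios of replicate 1 to replicate 2 ran from 0.698 at Pop4 to 1.19 at Rpp21, within the range of 0.608 to 2.27 that held the central 90% of occupied protein-coding genes. In order of level, the replicate ranges of Pop7, Rpp30, Rpp38, Rpp21, Rpp40 and Pop4 did not overlap those of their neighbours, and Rpp14 and Pop1 overlapped each other. The spread was widest, in proportion, at the weakest gene.

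**Figure D2:**
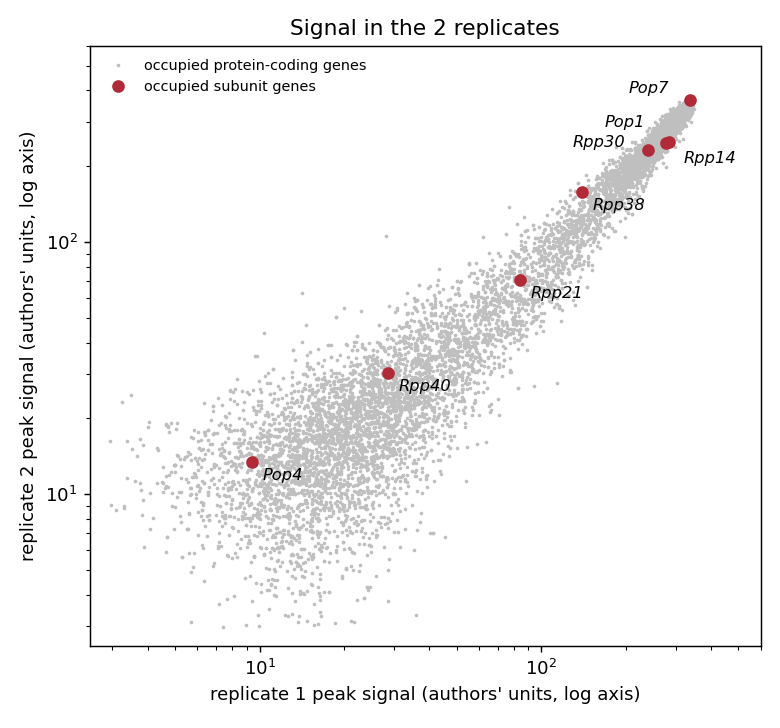
Peak signal in replicate 2 against replicate 1 (both log axes, authors' units) for occupied protein-coding genes (grey) and the 8 occupied subunit genes (red). The subunit genes lie along the cloud, with Pop7 at its upper end and Pop4, at 9.39 in replicate 1 and 13.5 in replicate 2, in the scattered lower end.

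Summits of the occupied subunit genes lay close to the starts. The median distance was 22.5 bp, against 83 bp over all occupied protein-coding genes, and 6 of 8 lay within 50 bp, against 35.6% of all. The exceptions were Rpp14, at 197 bp, and Rpp40, at 63 bp, both inside the gene.

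Some of these peaks lie near an annotated start of another gene. Rida, a reactive-imine deaminase gene, starts 65 bp from Pop1 on the other strand, and Acbd7, an acyl-CoA-binding protein gene on the other strand, has its outermost RefSeq end 186 bp from the Rpp38 start and 2 bp from the upstream Rpp38 summit. The Acbd7 start of the promoter table lies outside the window. Counting promoter-table starts and outermost ends of neighbours alike, 2 of the 8 occupied subunit genes had an opposite-strand neighbour within 1000 bp, against 22.0% of occupied protein-coding genes. Htd2, which encodes an enzyme of mitochondrial fatty acid synthesis, has the same start and strand as Rpp14. To which gene of a pair a peak belongs cannot be told apart in these data.

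The NRF1 consensus (GCGCACGCGC or GCGCATGCGC, either strand) was sought in promoter stretches from 250 bp before to 50 bp after the TSS, which RefSeq gave for 8 of the 10 genes; Pop1 and Rpp21 were the genes without an entry. Pop7 was the 1 subunit gene with an exact match, against 3.17% of 21045 promoters. It had 2 of them, at −87 to −78 on the strand of the gene and at −4 to 6 on the opposite strand, and the summit fell between them. Rpp38 had a match with 1 mismatch at −10 to −1, its centre 21.5 bp from the summit, so 2 genes held a match with up to 1 mismatch, against 13.0% of promoters. Rpp30 had a match with 2 mismatches centred 0.5 bp from its summit, and 3 genes held a match at this level, against 35.8% of promoters. Pop4, Pop5, Rpp14, Rpp25 and Rpp40 had none in this stretch, which does not reach the summits of Pop5, Rpp14 or Rpp40.

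The shorter palindrome TGCGCA, the core of many NRF1 elements, was present in the stretches of Pop7, Rpp38, Rpp30 and Rpp40, against 9.74% of all promoters. At Pop7, at −88 to −83 and at 2 to 7, it overlaps the exact consensus matches, and at Rpp38 and Rpp30 it overlaps matches with mismatches. At Rpp40 it lay at 32 to 37 with no consensus match around it. Pop4, Pop5, Rpp14 and Rpp25 held neither. The GGGCGG box of SP factors occurred in Pop7, Rpp40, Rpp25, Pop5 and Rpp14, against 46.7% of promoters, CCAAT in Pop4 and Rpp25, against 38.5%, ATGGCGG of YY1 in Rpp30, against 5.29%, and CCGGAAG of ETS factors in none, against 11.7%. Each was sought on both strands, and a match is a match of letters only.

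**Figure D3:**
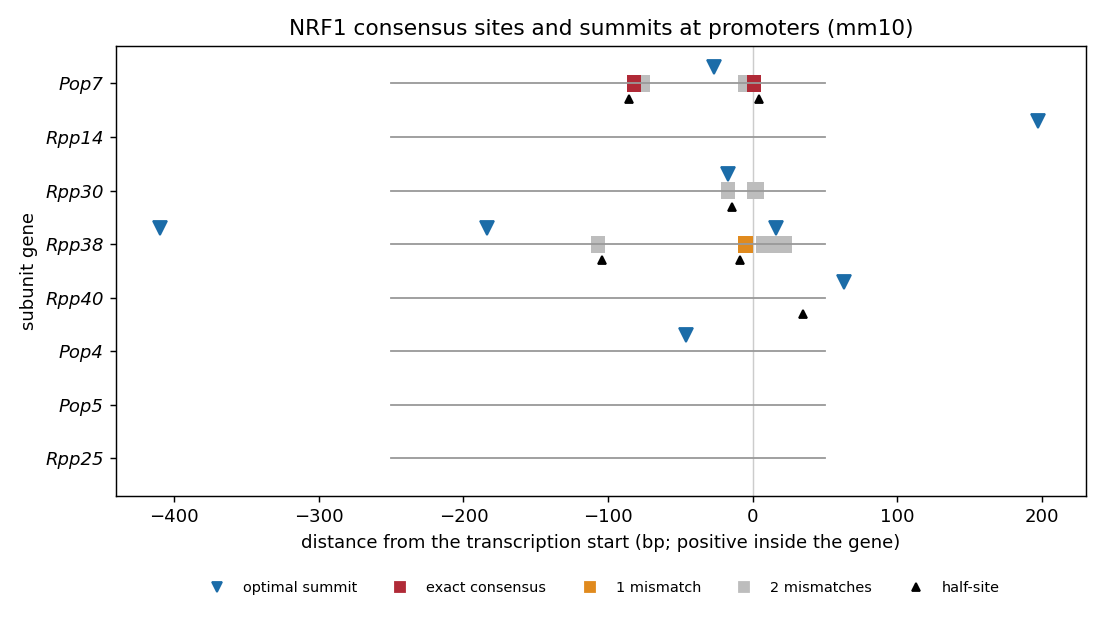
Position of optimal summits (blue), consensus matches (squares: exact red, 1 mismatch orange, 2 mismatches grey) and TGCGCA (black triangles, named half-site in the key) in bp from the TSS, for the 8 subunit genes with a promoter stretch; the grey line is the stretch searched. The exact matches of Pop7 flank its summit. The summits of Rpp14 and Rpp40, and the Rpp38 summit at -410 bp, lie beyond the searched stretch.

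In base composition, GC content of these 8 stretches ran from 49.0% at Rpp30 to 65.7% at Pop7, against a median of 56.7% over all promoters. The observed over expected CpG ratio was 0.963 at Pop7, 0.949 at Rpp14, 0.886 at Pop4, 0.866 at Pop5 and 0.839 at Rpp38, all above the upper quartile of 0.829. It was 0.613 at Rpp30, 0.560 at Rpp25 and 0.454 at Rpp40, near or below the median of 0.574. Pop4, with the weakest peak, and Pop7, with the strongest, were thus both CpG-rich.

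The mm9 peak set, made by the authors from both replicates, allowed sequence to be read at the summits. By the mm9 set and all GENCODE starts, 8 of the 10 genes were occupied, against 33.1% of 22208 protein-coding genes. The membership differed: Pop5 was in, with a signal of 2850 at rank 1031, and Pop7 was out. The nearest mm9 summit to Pop7 lay 30733 bp away, and 0 mm9 peaks overlapped its 2 exact consensus sites, although its mm10 peak was the second strongest of that set. The cause was not tested. Signal on mm9 was 2359 at Pop1, 2053 at Rpp30, 1966 at Rpp38, 1773 at Rpp14, 231 at Rpp21, 86.9 at Rpp40 and 43.4 at Pop4. The mm9 scale differs from that of mm10, and here too Rpp21, Rpp40 and Pop4 were the lowest. Above them the order differed: Rpp14 was below Pop1, Rpp30 and Rpp38 on mm9, and above all of them on mm10.

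Within 50 bp of the mm9 summit, 2 of these 8 genes, Pop1 and Rpp14, had an exact consensus, against 8.80% of 11216 mm9 peaks. With up to 1 mismatch there were 4, Pop5 and Rpp38 being added, against 34.0% of peaks, and with up to 2 there were 5, with Rpp30, against 62.8%. A gene was counted by the best match over its promoter peaks, of which Rpp38 had more than 1. The shares are per peak over all mm9 peaks, at promoters or not, so the units differ. The site of Rpp14 begins 202 bp inside the gene, just past the annotated exon, and its centre lies 12.5 bp from the summit. The site of Pop5 is also centred 12.5 bp from its summit and begins 37 bp before the annotated start nearest the summit. The summits of Pop4, Rpp21 and Rpp40 had no match at this level within 50 bp, and these were the 3 weakest of the genes with a peak in both builds.

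Both catalytic RNA genes lay next to a peak whose optimal summit sits at the start of a protein-coding neighbour. A strong optimal peak with 239 in replicate 1 and 233 in replicate 2 lay 315 bp upstream of the 5′ end of Rmrp, a minus-strand gene, and 9 bp inside Ccdc107 on the plus strand, whose promoter has an exact consensus at −8 to 2. Inside the Rmrp gene a weaker peak had 25.9 in replicate 1 and 22.3 in replicate 2. The peak nearest Rpph1, also a minus-strand gene, had 75.6 in replicate 1 and 43.8 in replicate 2. Its optimal summit lay 129 bp upstream of the Rpph1 5′ end and 16 bp upstream of the plus-strand gene Parp2. Parp2 encodes a poly(ADP-ribose) polymerase. The summit lay 131 bp from the Rpph1 5′ end in replicate 1 and 56 bp from it in replicate 2, so the replicates differed in position.

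Of 26 other tRNA processing genes 23 were occupied, against 39.2% of all protein-coding genes, with a median optimal signal of 58.2, below the 85.6 of all occupied genes. Among the strongest were Nsun2, a tRNA methyltransferase, at 643, and Trnt1, which adds the CCA end, at 528. Trpt1, Trmt1 and Trmt5 were unoccupied, with nearest summits 1014, 1561 and 173910 bp away, so Trpt1 lay just outside the window. The mitochondrial ribonuclease P, a protein enzyme without RNA, had signals of 368 at Prorp, 33.7 at Hsd17b10 and 33.1 at Trmt10c.

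Of 22 pre-rRNA cleavage and trimming genes 21 were occupied, against 39.2% of all protein-coding genes. Their median optimal signal was 330, against 85.6 for all occupied genes. The strongest were the exosome genes Exosc1 at 632 and Exosc5 at 614, and Mphosph6, an exosome cofactor, at 586. Xrn2, a 5′ to 3′ exonuclease, was the unoccupied gene, with the nearest optimal summit 156544 bp away. In the conservative set all 22 genes, Xrn2 included, were occupied, against 37.9% of all protein-coding genes. The 17547 strongest peaks of replicate 1 alone also gave 22, against 40.5%.

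**Figure D4:**
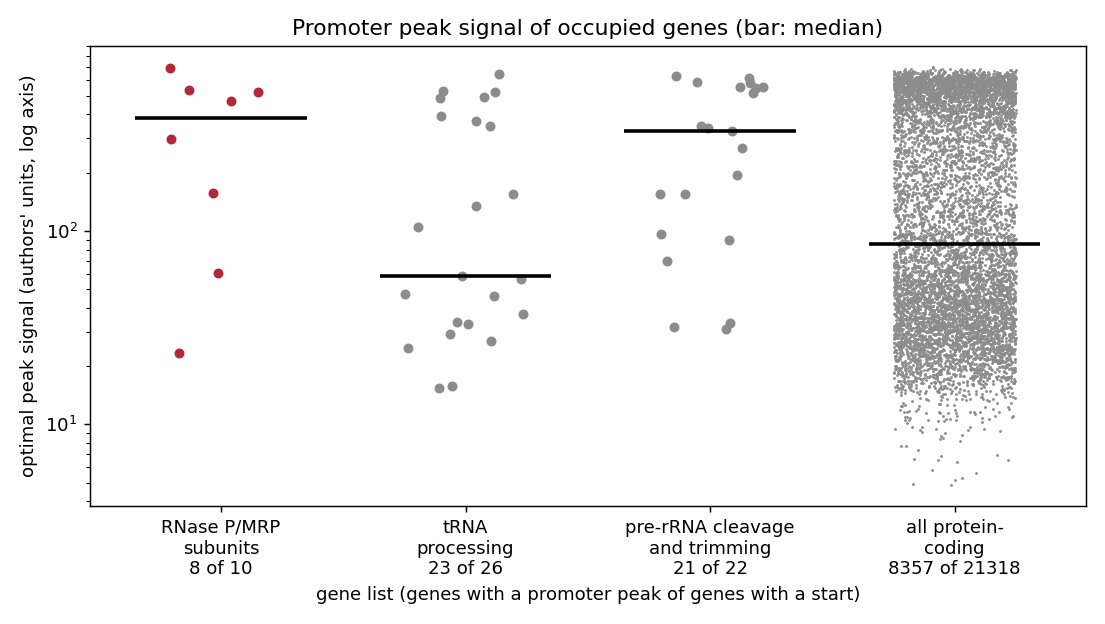
Optimal promoter peak signal (authors' units, log axis) of each occupied gene in the subunit genes (8 of 10), the tRNA processing list (23 of 26), the pre-rRNA list (21 of 22) and all protein-coding genes (8357 of 21318), with bars at the medians. The bars stand at 383, 58.2, 330 and 85.6.

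Counts of occupied subunit genes were similar in the other peak sets. The conservative set gave 8 of 10, against 37.9% of all protein-coding genes. The 8773 strongest optimal peaks gave 7, against 28.7%, with Pop4 lost. The 17547 strongest peaks of replicate 2 alone gave 8, against 39.0%, and those of replicate 1 alone gave 7, against 40.5%, again without Pop4. With the outermost RefSeq gene end as the only start, 7 were occupied, against 36.8%, since the start of Rpp40 moved away from its peak.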

How the data were processed

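Peak lists were used as the authors deposited them. Per the deposited text files, relaxed lists were called on mm10 for each replicate and the pooled replicates, and conservative and optimal sets were selected from them by irreproducible discovery rate; an mm9 set came from both replicates. No source used here gives the aligner, the caller or its thresholds. The control library was not analysed here. Each deposited peak has a signal, and the selected sets a rank score; no counts were used and depth is unknown. Peaks on chromosomes 1 to 19 and X were kept.

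Starts came from the RefSeq promoter table of GRCm38.p6 (17274 genes) or, without an entry, from the gene's 5′ end with the GENCODE vM1 strand (4044 genes). The strongest relaxed peak overlapping an optimal peak gave the replicate values. No coordinates were converted between builds. Python 3.11.15, numpy 2.4.6, pandas 2.3.3 and scipy 1.17.1 were used, and scripts were checked on simulated data.

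The genes, lists and start definition were chosen with earlier results of these data known. Named genes were all subunit genes, the RNA genes, Rpp25l, neighbours within 1000 bp, the 3 strongest and the unoccupied genes of each list, and the 3 genes nearest to Pop7 and Pop4 in log2 signal; Prorp, Hsd17b10 and Trmt10c were added after their values were seen. A gene named by this rule is not reported here. With 1 group, no test was run.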

Additional observations from a re-analysis of the deposited data

How the results depend on the processing

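The count of 8 occupied subunit genes stayed between 7 and 8 under every alternative run: the conservative set, the strongest optimal peaks, windows of 500 and 2000 bp, peak overlap in place of the summit, the mm9 set, and the outermost gene end as the start, which was added after seeing the data. In the mm9 set the 8 genes were not the same ones, with Pop5 in and Pop7 out. Windows of 500 and 2000 bp gave 37.1% and 40.8% of all protein-coding genes, and peak overlap gave 39.5%. With 1 replicate left out the count of subunit genes was 7 to 8, Pop4 being the gene lost without replicate 2. The same omission gave 22 to 23 of the tRNA processing genes and 21 to 22 of the pre-rRNA genes. The share of all protein-coding genes was 39.0% without replicate 1 and 40.5% without replicate 2. With the strongest optimal peaks, 15 tRNA processing genes were occupied in place of 23, against 28.7% of all protein-coding genes in place of 39.2%. Fewer peaks are kept by construction. The conservative set gave 20 tRNA processing genes, against 37.9% of all protein-coding genes. Within 50 bp of the mm9 summits, 4 of 8 genes had the consensus with up to 1 mismatch, against 34.0% of mm9 peaks. It was exact in 2, against 8.80%, and 5 had it with up to 2 mismatches, against 62.8%. With up to 1 mismatch, a window of 25 bp gave 3 genes, against 28.9% of peaks. Windows of 100 and 250 bp gave 4, against 35.8% and 38.7%. In the promoter stretches, 1 of 8 genes had it exactly, against 3.17% of all promoters. With up to 1 mismatch there were 2, against 13.0%, and with up to 2 there were 3, against 35.8%. No paired analysis was possible because the samples form 1 group. Depth is unknown, so the precision of weak signals such as that of Pop4 rests on the spread of 2 replicates.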
